A study of Mus musculus with 24 samples.

Results

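The genes described here are 45 genes of the dividing cell: cyclins and their kinases, the replication machinery, the enzymes that make DNA building blocks, and the kinases, motors and ligases of mitosis. They were listed by function, and a gene was taken where a probe of the array carried its symbol. Of the 45, 40 were found under the listed symbol and Cdk1 under its older symbol Cdc2a, which gave 41 of the 17910 genes named on the array, with 75 probes. Mki67, Aurkb, Kif20a and Cdk4 had no probe under their symbols, so Mki67, the usual marker of dividing cells, was not measured here.

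Lung RNA was measured in 24 mice, with 1 Illumina bead array per mouse, in 4 groups of 6 mice, each with 3 males and 3 females. AIRmax mice, a line bred for a strong acute inflammatory reaction, had received urethane or saline, and so had AIRmin mice, a line bred for a weak one. Urethane, a carcinogen that starts lung tumours in mice, was given at 1 mg per g of body weight in 2 intraperitoneal injections 48 h apart, and the lungs were taken 21 days later from parenchyma described as normal. The labels do not state the age of the mice. The groups are called AIRmax urethane, AIRmax saline, AIRmin urethane and AIRmin saline, and the question put to them is whether p53 activity at day 21 went with less or with more expression of division genes.

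Cells enter division when D cyclins with CDK4 or CDK6, and then cyclin E with CDK2, free the E2F factors from the retinoblastoma proteins, and E2F then switches on the genes of DNA replication. Genes of mitosis follow later, driven by B-MYB and FOXM1 at promoter elements called CHR. When DNA is damaged, p53 raises p21 (Cdkn1a), an inhibitor of these kinases, and the DREAM complex then holds E2F and CHR promoters silent. In adult lung few cells divide.

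The promoters of 4 genes that the results turn on are given first, as windows of 300 bases, 250 before and 50 after the gene's start, 5′ to 3′ on the gene's own strand (RefSeq, GRCm38.p6). Top2a and Cdk1 are mitotic genes whose levels varied together from mouse to mouse, Plk1 is a mitotic gene that differed between the lines, and Mcm6 is a replication gene that differed between the lines. Capitals mark an element of 3 kinds: the CHR with the letters TTTGAA, the CCAAT box named by its letters, and an E2F site of the form TTTNNCGC in which N is any base. Each was searched on both strands, so that a match may read as the reverse complement. The windows are chr11:99024140-99024439 on the minus strand for Top2a, chr10:69352863-69353162 on the minus strand for Cdk1, chr7:122159185-122159484 on the plus strand for Plk1, and chr1:128359656-128359955 on the minus strand for Mcm6. Counted from the first base of the gene as 1, with the base before it as -1, CHR letters began at -179 and -23 in Top2a, at -71 and -15 in Cdk1 and at 31 in Plk1. No CHR letters stood in the Mcm6 window, where E2F letters began at -110, -106 and -47, the first pair overlapping on opposite strands.
Top2a: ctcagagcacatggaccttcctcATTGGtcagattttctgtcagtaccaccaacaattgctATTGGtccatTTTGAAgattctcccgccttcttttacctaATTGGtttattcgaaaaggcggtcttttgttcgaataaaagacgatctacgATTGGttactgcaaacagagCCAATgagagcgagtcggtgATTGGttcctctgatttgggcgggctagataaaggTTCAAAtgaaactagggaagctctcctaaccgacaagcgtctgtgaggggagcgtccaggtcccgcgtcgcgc
Cdk1: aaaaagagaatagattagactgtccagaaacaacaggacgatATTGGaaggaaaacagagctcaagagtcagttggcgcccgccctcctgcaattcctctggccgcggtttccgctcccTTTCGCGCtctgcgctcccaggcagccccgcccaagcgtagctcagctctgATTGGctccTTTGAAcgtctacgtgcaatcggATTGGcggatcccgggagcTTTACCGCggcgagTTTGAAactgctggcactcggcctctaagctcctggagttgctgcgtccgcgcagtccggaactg
Plk1: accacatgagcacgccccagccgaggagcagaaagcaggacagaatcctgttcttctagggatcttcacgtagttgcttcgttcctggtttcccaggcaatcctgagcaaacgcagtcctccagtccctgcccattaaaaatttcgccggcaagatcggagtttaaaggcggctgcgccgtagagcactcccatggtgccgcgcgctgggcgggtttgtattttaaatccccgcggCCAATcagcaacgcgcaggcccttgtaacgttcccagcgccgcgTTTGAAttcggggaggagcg
Mcm6: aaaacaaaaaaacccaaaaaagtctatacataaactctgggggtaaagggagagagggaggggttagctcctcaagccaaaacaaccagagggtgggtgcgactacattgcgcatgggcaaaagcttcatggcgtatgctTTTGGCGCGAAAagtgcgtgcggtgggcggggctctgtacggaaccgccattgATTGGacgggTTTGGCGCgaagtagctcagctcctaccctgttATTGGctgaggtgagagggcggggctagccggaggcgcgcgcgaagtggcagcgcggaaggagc

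Of the 45 genes, 36 had a promoter in the RefSeq table, 39 promoters in all. A CHR together with a CCAAT box stood in 15 of 20 promoters of mitotic genes (75.0%), among them Aurka, Cdc20, Prc1, Kif11 and Mki67, in 1 of 12 of replication and nucleotide genes (8.3%), and in 7.0% of all 32851 promoters. E2F letters stood in 1 of 20 mitotic promoters (5.0%), that of Cdk1, in 6 of 12 of replication and nucleotide genes, and in 5.2% of all promoters. These are matches of letters, and binding was not measured. Foxm1, Ccne2, Stmn1, Ccna2, Ccnd1, Ccnd2, Aurkb, Kif20a and Mcm4 had no entry.

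Values below are log2 of the deposited normalized intensities, and a level is never compared between genes, because probes differ in brightness. A probe was taken as above background beyond a log2 value of 7.93, and was tested where at least 3 arrays passed that limit. This left 37 of the 41 genes, each by its brightest probe, and 32 of them were above background in all 24 mice. Ccne2 was above it in 7 mice, Ube2c in 5, Pcna in 21, and Plk1 and Cdca8 in 23. Ccna2, Ccnb2, Bub1 and Tacc3 were above it in none and were not tested. Differences were tested with limma over all 18324 tested probes of 13202 genes, and a gene is said to have risen or fallen where its Benjamini-Hochberg adjusted p was under 0.05.

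RNA of tissues other than lung was present in part of the libraries. Lung genes were high in every mouse, and 9 of 10 lung markers were above background in all 24. AIRmax urethane mouse 4, a female, carried thymus transcripts: Rag1, the recombinase of immature lymphocytes, stood at 10.88, against 7.72 to 8.21 in the other 23 mice, and Dntt, Arpp21 and Prss16 stood at 9.21, 9.49 and 9.76, each above every other mouse. Of 21 thymocyte markers with a probe, at most 18 were above background in AIRmax urethane mice, 16 in AIRmax saline mice, 15 in AIRmin urethane mice and 14 in AIRmin saline mice. The log2 of their summed intensity ran from 14.51 to 16.72 in AIRmax urethane mice, 14.20 to 15.38 in AIRmax saline mice, 14.37 to 15.05 in AIRmin urethane mice and 14.43 to 14.79 in AIRmin saline mice. The thymocyte gene Ptcra was above background but not raised in mouse 4, at 8.60, against 8.03 to 8.70 in the other 23 mice. Rag2, Cd8a, Ccr9 and the thymic epithelial factor Foxn1 were not above background in any mouse. Mouse 4 also had the highest hepatocyte score, 6.98 against at most 0.78 elsewhere, a score being the mean, over the genes of a list, of the distance in log2 units from each gene's own median. In mouse 4, 8 of 11 hepatocyte markers were above background. The albumin gene Alb was below the background limit in every mouse, at 7.39 in mouse 4.

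Transcripts of stratified squamous epithelium, a tissue with a dividing basal layer, were high in 10 mice. Krt14, a keratin of that layer, stood at 11.38 or more in AIRmax urethane mice 2 and 4, AIRmin urethane mice 7 and 17, and 5 of 6 AIRmin saline mice, and at 9.38 in AIRmax saline mouse 9, against at most 8.22 in the other 14 mice. Because thymus and squamous epithelium contain dividing cells, results below are also given without mouse 4, or with the scores of these tissues as covariates, where that changes a call. In whole lung, more dividing cells and more transcript per cell cannot be told apart.

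The p53 targets separated every urethane mouse from every saline mouse: their score ran from 0.145 to 0.324 in AIRmax urethane mice, against -0.189 to -0.116 in AIRmax saline mice, and from 0.129 to 0.386 in AIRmin urethane mice, against -0.339 to -0.223 in AIRmin saline mice. Cdkn1a ran from 14.18 to 14.49 in AIRmax urethane mice (median 14.41), against 12.26 to 13.13 in AIRmax saline mice (median 12.95), and from 13.56 to 14.33 in AIRmin urethane mice (median 13.92), against 12.01 to 12.86 in AIRmin saline mice (median 12.59). The groups did not overlap in either line. It rose 2.81-fold after urethane over both lines (log2 difference 1.49 ± 0.10 SE, limma adjusted p = 8.1e-09), 2.82-fold in AIRmax and 2.80-fold in AIRmin. Of 25 tested p53 targets 13 rose and 0 fell over both lines, where 0.5% of all tested genes were called higher and 0.258% lower. Among the 13 were the cyclin-like Ccng1 (0.89, adjusted p = 3.8e-10), the secreted factor Gdf15 (2.36, adjusted p = 7.6e-09), Phlda3 (1.06) and Sesn2 (0.78).

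Over both lines 1 of the 37 tested genes rose after urethane and 0 fell, where 0.757% of all tested genes were called in either direction, 0.5% higher and 0.258% lower. The gene that rose was Ccnd1, cyclin D1, which starts the passage from G1 into S phase. At an unadjusted p under 0.05, 7 of the 37 were higher and 0 lower, where 6.18% and 6.54% of all genes were. The estimated difference was positive for 28 of 37 genes, 75.7%, against 47.9% of all tested genes, with a median of 0.12 against 0.00 (-0.0044). In a fit of the 14 mice with a squamous score of at most 1, 24 of 37 were positive, with a median of 0.05. That fit was additive in line, treatment and sex, and mouse 18 was the only AIRmin saline mouse in it. A lower value there can therefore come from the model and the mice lost as well as from squamous tissue, which was not tested. These genes share their samples and many varied together from mouse to mouse, so the 28 are not 28 separate observations. Thymocyte markers had positive differences for 15 of 17 tested over both lines, with a median of 0.12, and for 17 of 17 in AIRmax, and 0 were called. Of 6 tested B cell genes 5 were lower at an unadjusted p under 0.05, with a median of -0.24. With the thymocyte score in the fit, 28 of the 37 division genes had a positive difference, with a median of 0.11.

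Ccnd1 had values of 14.81, 15.10, 14.85, 15.22, 15.26 and 15.16 in AIRmax urethane mice, against 14.54, 14.52, 14.60, 14.57, 14.80 and 14.52 in AIRmax saline mice. The groups did not overlap, although the lowest urethane and the highest saline mouse lay 1 hundredth of a log2 unit apart. In AIRmin urethane mice it was 14.86, 14.92, 14.92, 15.13, 14.80 and 14.75, against 14.69, 14.75, 14.69, 14.61, 14.60 and 14.89 in AIRmin saline mice, where the groups overlapped. Over both lines it averaged 14.98 ± 0.18 in urethane mice and 14.65 ± 0.12 in saline mice (SD, n = 12 each), a difference of 0.33 ± 0.06 (SE), or 1.26-fold, with a limma adjusted p of 0.0081. The other 2 Ccnd1 probes gave 0.29 (adjusted p = 0.0304) and 0.46 (adjusted p = 0.0508). The last of these was also higher in AIRmax than in AIRmin mice (0.60, adjusted p = 0.000961), which the others were not (0.03 and 0.01). Without mouse 4 the difference was 0.37 (adjusted p = 0.00123), and with the thymocyte score as a covariate 0.36 (adjusted p = 0.0013). In the additive fit of the 14 mice with a squamous score of at most 1, with mouse 18 alone from AIRmin saline, it was 0.44.

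**Figure D1:**
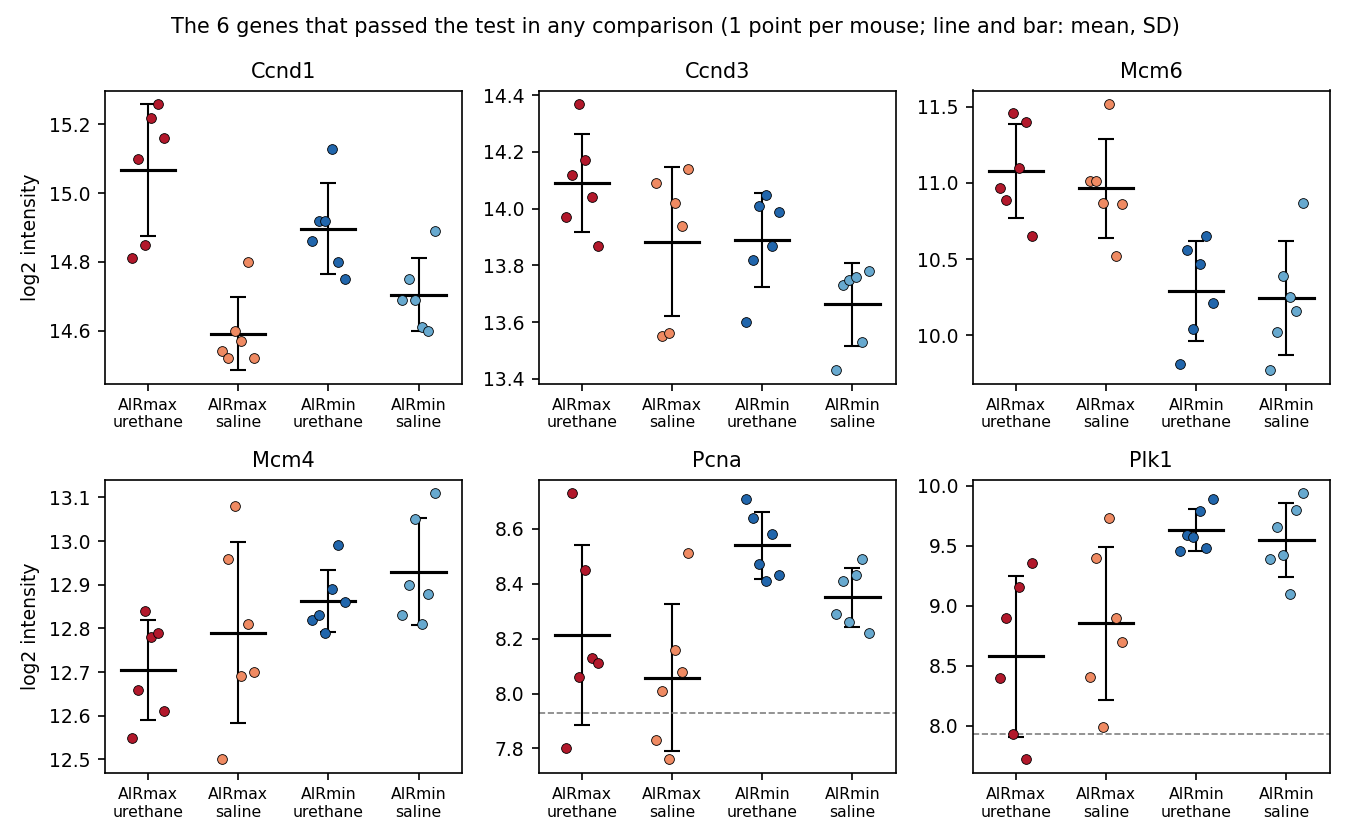
Log2 intensity of Ccnd1, Ccnd3, Mcm6, Mcm4, Pcna and Plk1 in every mouse, with 1 point per mouse, grouped as AIRmax urethane, AIRmax saline, AIRmin urethane and AIRmin saline. The black line and bar are the mean and SD of 6 mice, and the dashed line, where it falls inside a panel, is the background limit of 7.93. The 6 AIRmax urethane mice lay at or above 14.81 for Ccnd1 and the 6 AIRmax saline mice at or below 14.80, while Mcm6 was higher and Plk1 lower in AIRmax than in AIRmin mice.

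Among the other cyclins and their kinases, 3 genes were higher at an unadjusted p under 0.05 and did not pass the adjusted threshold. Cdk2, the partner of cyclin E, averaged 12.34 ± 0.22 in AIRmax urethane mice and 12.15 ± 0.07 in AIRmax saline mice, and 12.38 ± 0.14 in AIRmin urethane mice and 12.19 ± 0.05 in AIRmin saline mice (SD, n = 6 each). Its difference over both lines was 0.19 ± 0.05 (SE, limma adjusted p = 0.104), and in AIRmax urethane mouse 1 it was 11.99, below every saline mouse. The other Cdk2 probes gave -0.01, 0.10 and 0.17 over both lines and were not called. Ccnd3, a D cyclin prominent in blood cells, differed by 0.22 ± 0.06 (adjusted p = 0.121), and Ccne2, close to background, by 0.19 ± 0.08 (adjusted p = 0.326). The other Ccnd3 probes gave 0.14 and -0.07 and were not called. Ccnd2 differed by 0.06 (adjusted p = 0.895), Ccne1 by -0.01 and Cdk6, the other kinase of D cyclins, by 0.12 (adjusted p = 0.509).

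Most genes tied to mitosis had positive differences after urethane that did not pass the test. Top2a, the topoisomerase that untangles chromosomes before they part, had values of 9.19, 9.73, 10.50, 10.23, 9.77 and 9.34 in AIRmax urethane mice, against 8.85, 9.51, 9.22, 10.10, 9.53 and 9.45 in AIRmax saline mice. In AIRmin urethane mice it had 9.57, 9.60, 9.47, 10.31, 9.91 and 9.87, against 9.21, 9.47, 9.34, 9.28, 9.75 and 10.38 in AIRmin saline mice. The groups overlapped in both lines, with mouse 4 the highest of AIRmax urethane and mouse 23 the highest of AIRmin saline. Top2a differed by 0.28 ± 0.15 (SE, limma adjusted p = 0.441), and by 0.24 without mouse 4 (adjusted p = 0.464).

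Ccnb1 and Cdk1, whose proteins together form the kinase that starts mitosis, differed by 0.25 ± 0.15 and 0.23 ± 0.16 (limma adjusted p = 0.509 and 0.598). Prc1, which bundles the microtubules of the dividing cell's midzone, differed by 0.32 ± 0.17 (adjusted p = 0.451), and Nusap1, a spindle protein, by 0.25 (adjusted p = 0.469). Aurka, the spindle pole kinase, differed by 0.19 (adjusted p = 0.506), Birc5, a subunit of the chromosomal passenger complex, by 0.14 (adjusted p = 0.684), and Cdc20, an activator of the anaphase-promoting complex, by 0.16 (adjusted p = 0.594). Plk1, a kinase used throughout mitosis, differed by -0.10 ± 0.19 (adjusted p = 0.876). By role, 5 of 5 spindle and cytokinesis genes had a positive difference with a median of 0.25, and 0 of 5 were called. Of the 3 genes of anaphase promotion, Cdc20 alone was positive, and Cdca3 and Ube2c, a conjugating enzyme of the anaphase-promoting complex, differed by -0.0035 and -0.08 (adjusted p = 0.994 and 0.644). Stmn1, a microtubule-destabilizing protein of that group, had a median of 9.14 in AIRmax urethane mice and 9.08 in AIRmax saline mice, and of 9.71 in AIRmin urethane mice and 8.99 in AIRmin saline mice. Over both lines it differed by 0.30 ± 0.14 (adjusted p = 0.392).

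Replication genes had smaller estimated differences, and 0 of 8 were called. The 6 subunits of the MCM helicase, which opens DNA at replication origins, ran from -0.14 for Mcm3 (limma adjusted p = 0.511) to 0.08 for Mcm6 (adjusted p = 0.839), with Mcm2 at 0.07, Mcm4 at -0.08, Mcm5 at -0.01 and Mcm7 at 0.02. Pcna, the sliding clamp of the polymerases and also a p53 target, differed by 0.17 ± 0.09 (adjusted p = 0.472). Among the enzymes of nucleotide supply, Tyms differed by 0.17 ± 0.06 (adjusted p = 0.214), Rrm1 by 0.21 (adjusted p = 0.288), Tk1 by 0.09 (adjusted p = 0.83) and Rrm2, the S phase subunit of ribonucleotide reductase, by -0.08 (adjusted p = 0.734). The other tested Tyms probes gave -0.05, 0.06 and 0.06 and were not called. The transcription factors E2f1 and Foxm1 differed by -0.10 (adjusted p = 0.628) and 0.05 (adjusted p = 0.833). The medians were 0.04 for 8 replication genes, 0.13 for 4 nucleotide genes and 0.12 for 5 mitotic kinase and checkpoint genes.

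In AIRmax 1 of 37 genes rose after urethane and 0 fell (0.227% of all tested genes were called, 0.159% higher and 0.0682% lower), and this was again Ccnd1, with a difference of 0.47 ± 0.08 (SE), or 1.39-fold, and a limma adjusted p of 0.0186. The call ended when any 1 of mice 2, 5, 6, 11, 12, 16, 21 or 24 was left out, with differences of 0.43 to 0.48 and adjusted p of 0.0506 to 0.0768. Without mouse 4 the difference was 0.54 (adjusted p = 0.00306), and in a fit of the 12 AIRmax arrays alone it was 0.47 with an adjusted p of 0.146. The other Ccnd1 probes gave 0.33 (adjusted p = 0.188) and 0.55 (adjusted p = 0.211) in AIRmax and were not called. At an unadjusted p under 0.05, 4 were higher and 0 lower in AIRmax, where 3.07% and 5.48% of all tested genes were. In AIRmin 0 of 37 were called (0.258% of all tested genes were, 0.22% higher and 0.0379% lower). At an unadjusted p under 0.05, 5 were higher and 0 lower, where 6.23% and 4.79% of all tested genes were: Cdk6 (0.27), Cdk2 (0.20), Ccnd3 (0.23), Stmn1 (0.51) and Ccnd1 (0.19, adjusted p = 0.416). In each line 28 of 37 differences were positive, against 44.2% of all tested genes in AIRmax and 53.3% in AIRmin.

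The effect of urethane was not shown to differ between the lines for any of these genes. On simulated data the test of that difference recovered 35% of changes of 0.5 log2 units. The urethane difference recovered 75% of such changes in AIRmax and 78% in AIRmin. The changed probes were drawn from all tested probes, and the median SD within groups of all tested genes was 0.17. Several mitotic genes varied more, with an SD of 0.46 for Prc1 and 0.44 for Cdk1. For such genes the recovery was not simulated, and these shares do not give it. In the test of that difference, AIRmax minus AIRmin, 0 of 37 genes were called, as were 0% of all tested genes. At an unadjusted p under 0.05, 1 of the 37 was higher and 1 lower, where 2.9% and 3.46% of all tested genes were. Ccnd1 gave 0.28 ± 0.12 (SE, unadjusted p = 0.032, limma adjusted p = 0.727), Cdk6 gave -0.30 (adjusted p = 0.785), Stmn1 gave -0.42 (adjusted p = 0.864) and Top2a gave 0.13 (adjusted p = 0.964).

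**Figure D2:**
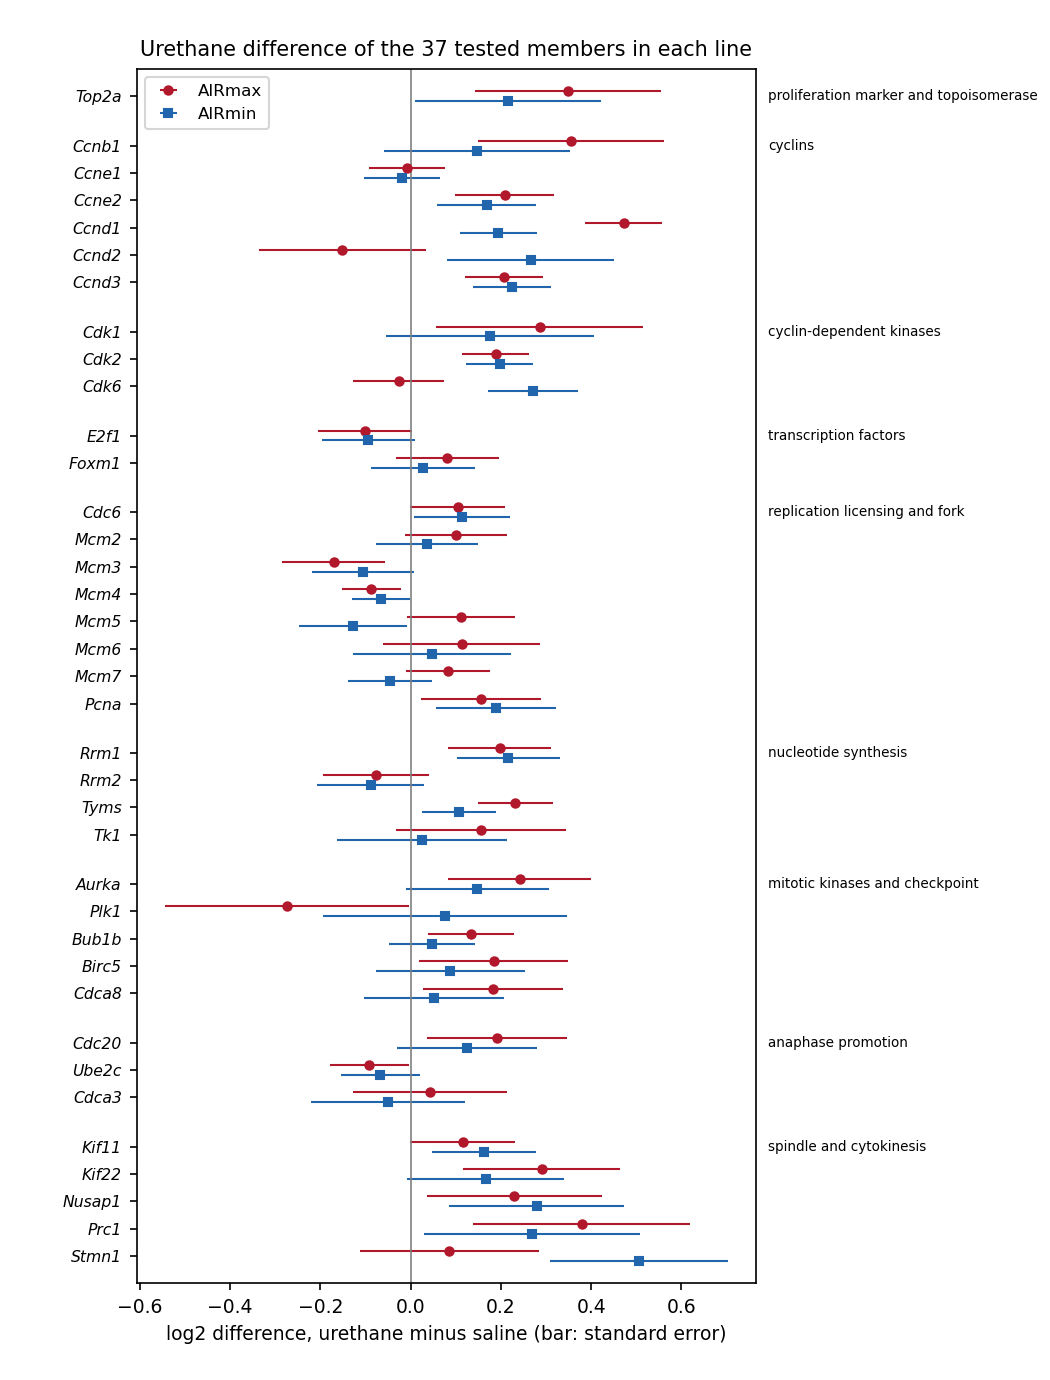
Log2 difference between urethane and saline mice for the 37 tested genes, grouped by role, with AIRmax as red circles and AIRmin as blue squares. Bars are standard errors of the limma fit, and the grey line marks no difference. Most points lay right of 0 in both lines, the AIRmax value of Ccnd1 stood at 0.47, and the AIRmax values of Plk1, Ccnd2 and Cdk6 lay left of 0 with AIRmin values right of it.

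Genes of the same pathways outside the list were described alongside. They too were chosen with earlier results known. Over both lines 0.5% of all tested genes were called higher after urethane and 0.258% lower. At an unadjusted p under 0.05 the shares were 6.18% and 6.54%. Of 37 other mitosis genes tested, 1 rose after urethane over both lines and 0 fell: Ncaph, a condensin subunit, differed by 0.62 ± 0.10 (SE, limma adjusted p = 0.00416), and the median of the 37 was 0.04. Of 26 other replication genes 0 were called, with a median of -0.02, and of 14 E2F and DREAM regulators 0 were called, with 2 higher and 1 lower at an unadjusted p under 0.05. Of 7 inhibitors of cyclin-dependent kinases Cdkn1a alone rose over both lines, and the other 6 had negative differences. Within the lines, 4 of the 7 were positive in AIRmin, with a median of 0.035. In AIRmax 2 of the 7 were positive, with a median of -0.201. At an unadjusted p under 0.05, 3 of the 7 were lower in AIRmax and 0 in AIRmin, where 5.48% and 4.79% of all tested genes were. A difference between the lines was not shown: in the test of it 0 of the 7 were called, with a lowest limma adjusted p of 0.665. There 0 were higher and 1 lower at an unadjusted p under 0.05, where 2.9% and 3.46% of all tested genes were. Gtse1, a microtubule-binding protein of G2 and M phase that p53 also regulates, rose by 0.94 (adjusted p = 0.000402).

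From mouse to mouse, Cdkn1a and Top2a were not related at a level these samples could show. Over the 12 urethane mice Pearson's r was 0.13 and Spearman's rho -0.04 (permutation p = 0.675 and 0.922, adjusted over 2 relations 0.816 and 0.922). With 1 mouse left out, r in urethane mice ran from 0.033, without mouse 5, to 0.363, without mouse 1. Over the 12 saline mice r was 0.08 and rho 0.08 (permutation p = 0.816 and 0.799). Without the 2 mice farthest from the median of Cdkn1a, r was 0.11 in urethane mice and -0.16 in saline mice. Within the lines, r was -0.40 in AIRmax urethane mice (exact permutation p = 0.417) and 0.67 in AIRmin urethane mice (exact permutation p = 0.164), and -0.01 in AIRmax saline mice (exact permutation p = 0.919) and 0.37 in AIRmin saline mice (exact permutation p = 0.483), with 6 mice each and two-sided tests.

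**Figure D3:**
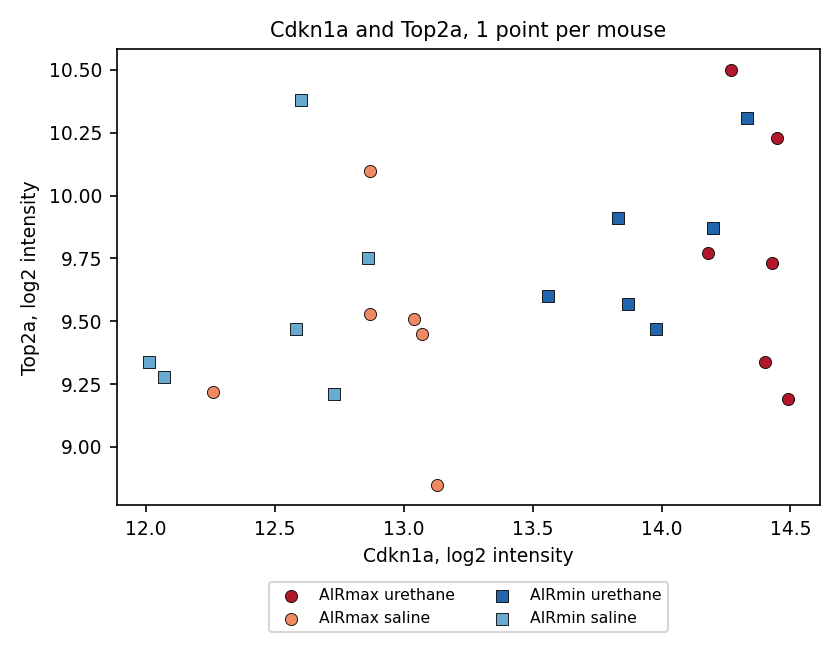
Log2 intensity of Top2a against that of Cdkn1a, with 1 point per mouse. Circles are AIRmax mice and squares AIRmin mice, in dark colours after urethane and light ones after saline. The urethane mice lie to the right, at Cdkn1a values of 13.56 or more, and the saline mice to the left, at 13.13 or less, while the Top2a values of both span much the same range, 9.19 to 10.50 after urethane and 8.85 to 10.38 after saline.

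Between the lines, 2 of the 37 genes were higher and 3 lower in AIRmax than in AIRmin mice over both treatments, where 13.8% of all tested genes were called, 6.55% higher and 7.23% lower. The 5 of 37 are a share close to that background. Mcm6 and Ccnd3 were higher, and Plk1, Pcna and Mcm4 were lower. The estimated difference was positive for 15 of 37 genes against 48.7% of all tested genes, with a median of -0.037. With array weights it was positive for 19 of 37 and the median turned to 0.006. Among saline mice 12 of 37 were positive, and 20 with array weights. Top2a, Ccnb1 and Cdk1 differed by -0.06, -0.17 and -0.23 (limma adjusted p = 0.842, 0.501 and 0.382).

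Mcm6, a subunit of the MCM helicase, had the smallest adjusted p of the 5. Its main probe gave 10.97, 10.89, 11.46, 11.10, 11.40 and 10.65 in AIRmax urethane mice, against 9.81, 10.56, 10.04, 10.47, 10.65 and 10.21 in AIRmin urethane mice. In AIRmax saline mice it gave 11.01, 11.01, 10.87, 11.52, 10.52 and 10.86, against 9.77, 10.02, 10.39, 10.25, 10.16 and 10.87 in AIRmin saline mice. The lines touched under urethane and overlapped under saline, where AIRmin mouse 23 was as high as AIRmax mice. Over both treatments Mcm6 averaged 11.02 ± 0.31 in AIRmax and 10.27 ± 0.34 in AIRmin mice (SD, n = 12 each), 1.69-fold higher, with a difference of 0.76 ± 0.12 (SE) and a limma adjusted p of 0.000369. The difference was 0.79 among urethane mice (adjusted p = 0.0135) and 0.72 among saline mice (adjusted p = 0.0172). Among urethane mice 1 of 37 genes was higher and 1 lower, where 3.9% of all tested genes were called, 1.67% higher and 2.23% lower. Among saline mice 1 was higher and 0 lower, where 7.1% were called, 3.26% higher and 3.83% lower. Without AIRmax saline mouse 21 the saline difference was 0.62, with an adjusted p of 0.0501.

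The Mcm6 probes did not give the same size of difference. A second probe, ILMN_1233857, averaged 10.45 ± 0.30 in AIRmax and 9.69 ± 0.21 in AIRmin mice (SD, n = 12 each), a difference of 0.76 (limma adjusted p = 2.17e-05). Probe ILMN_1217331 ran from 9.58 to 10.65 in AIRmax mice and was above background in all 12, and it ran from 6.92 to 7.38 in AIRmin mice and was above background in 0 of 12. AIRmax was thus at least 4.86-fold higher by this probe (adjusted p = 4.31e-14), with the AIRmin side set at the background limit. The fourth probe was above background in 0 mice. The other 3 were higher in AIRmax.

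**Figure D4:**
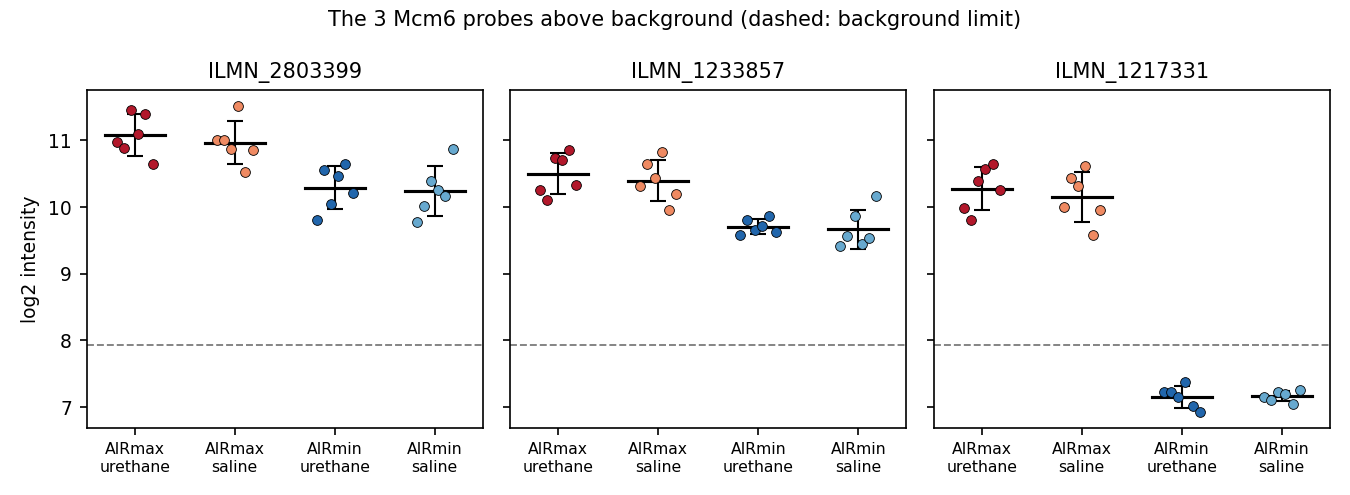
Log2 intensity of the 3 Mcm6 probes that rose above background, with 1 point per mouse, in AIRmax urethane, AIRmax saline, AIRmin urethane and AIRmin saline mice. The black line and bar are the mean and SD of 6 mice, and the dashed line is the background limit of 7.93. By ILMN_1217331 all 12 AIRmin mice lay below the limit and all 12 AIRmax mice at 9.58 or more, whereas the other 2 probes were above the limit in all 24.

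Plk1 had 1 probe on the array, so no second probe could be set beside it, and by that probe Plk1 was lower in AIRmax mice. It gave 8.40, 8.90, 7.93, 9.16, 7.72 and 9.36 in AIRmax urethane mice, against 9.46, 9.59, 9.57, 9.79, 9.48 and 9.89 in AIRmin urethane mice, with no overlap. In AIRmax saline mice it gave 8.41, 9.40, 7.99, 9.73, 8.90 and 8.70, against 9.39, 9.66, 9.42, 9.10, 9.80 and 9.94 in AIRmin saline mice, where AIRmax mice 11 and 21 reached the AIRmin range. It averaged 8.72 ± 0.64 in AIRmax mice and 9.59 ± 0.24 in AIRmin mice (SD, n = 12 each). The difference was -0.87 ± 0.19 (SE), or 0.546-fold, with a limma adjusted p of 0.00487 over both treatments, and -1.05 among urethane mice (adjusted p = 0.0348). Among urethane mice the call ended without any 1 of mice 1, 2, 4, 6, 7, 8, 13, 14, 15 and 17 (differences of -1.10 to -0.91, adjusted p of 0.0507 to 0.0955), and without mouse 4 the difference was -0.96 (adjusted p = 0.0707). It also ended with the thymocyte score (-0.95, adjusted p = 0.0859) or the hepatocyte score (-0.93, adjusted p = 0.118) as a covariate, with array weights (-0.89, adjusted p = 0.105) and in a fit of the urethane arrays alone (adjusted p = 0.0553).

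Pcna, also with 1 probe, ran from 7.76 to 8.73 in AIRmax and from 8.22 to 8.71 in AIRmin mice. In 3 AIRmax mice it was below the background limit. It differed by -0.31 ± 0.09 (SE, limma adjusted p = 0.0343), and the call ended without any 1 of mice 1, 3, 6, 7, 8, 9, 10, 12, 15, 16, 19, 20 and 21 (-0.31 to -0.26, adjusted p of 0.0502 to 0.066), and with the thymocyte (adjusted p = 0.0621), squamous (0.129) or hepatocyte (0.0855) score as a covariate. Mcm4 ran from 12.50 to 13.08 in AIRmax and from 12.79 to 13.11 in AIRmin mice and differed by -0.15 ± 0.05 (adjusted p = 0.0349), a call that ended without any 1 of mice 1, 5, 6, 9, 10, 11, 15, 17, 18, 22 and 23 (adjusted p of 0.0505 to 0.0667). The Mcm4 call also ended with the squamous score (adjusted p = 0.0599) or the hepatocyte score (0.0543) as a covariate, after cyclic loess (0.0506), without a sex term (0.0904) and with the mean of its probes (-0.08, adjusted p = 0.181). Its other 2 probes, near background and above it in 8 and 4 of 24 mice, gave -0.09 and 0.01 and were not called. Ccnd3 ran from 13.55 to 14.37 in AIRmax and from 13.43 to 14.05 in AIRmin mice and differed by 0.21 ± 0.06 (adjusted p = 0.0276), as did a second probe (0.24, adjusted p = 0.0104), while its remaining probe gave 0.05 and was not called. The Ccnd3 call ended without mouse 3, 7 or 15 (adjusted p of 0.0502 to 0.0559), with the thymocyte (adjusted p = 0.0587) or hepatocyte (0.0868) score as a covariate, and without a sex term (0.0766).

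Markers of other tissues differed between the lines as well. Among saline mice the log2 summed intensity of the squamous genes ran from 11.51 to 13.93 in AIRmax and from 11.66 to 17.63 in AIRmin mice. Of 11 squamous genes 9 were lower in AIRmax saline mice, where 3.83% of all tested genes were. Cd8b1, a T cell gene, was higher in AIRmax over both treatments (1.48, limma adjusted p = 0.000976). Fast skeletal muscle genes were lower in AIRmax for 4 of 7 tested over both treatments, where 7.23% of all tested genes were. Among urethane mice 0 of 7 muscle genes and 0 of 11 squamous genes were called. When the squamous score was added to the fit, 3 of 37 genes were called over both treatments and 0 among saline mice, where Mcm6 gave 0.60 (adjusted p = 0.231). The additive fit of the 14 mice with a squamous score of at most 1 kept mouse 18 alone of AIRmin saline, so only estimates are given. In it Mcm6, Plk1, Pcna, Mcm4 and Ccnd3 gave 0.58, -0.70, -0.34, -0.25 and 0.13 over both treatments.

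Among other genes of these pathways, counts of called genes stand beside the 6.55% of all tested genes called higher and the 7.23% called lower. Of 26 other replication genes 0 were higher and 4 lower in AIRmax, Dut (-0.40, limma adjusted p = 0.000334), Gins4, Rfc5 and Rfc3. Of 14 E2F and DREAM regulators, E2f4 (0.22, adjusted p = 0.00247) and Lin37 (0.28, adjusted p = 0.0426) were higher, and Rb1 (-0.33, adjusted p = 0.00282), Tfdp2, E2f5 and Lin54 were lower. Of 37 other mitosis genes, Kif2c (0.92, adjusted p = 0.00359), a microtubule-depolymerizing kinesin, and Ncapd2 (0.38, adjusted p = 0.00441), a condensin subunit, were higher and Tubb5 (-0.18, adjusted p = 0.0305) was lower. Of 25 tested p53 targets 3 were higher and 1 lower in AIRmax over both treatments. Cdkn1a (0.40, adjusted p = 0.0091), Fas (0.30, adjusted p = 0.0126) and Sesn2 (0.28, adjusted p = 0.041) were higher, and Ccng1 (-0.21, adjusted p = 0.00415) was lower. Cdkn1a was not called among urethane mice (0.41, adjusted p = 0.107) or saline mice (0.40, adjusted p = 0.0921) alone.

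Between female and male mice 0 of the 37 genes were called, against 0.121% of all tested genes, 0.0379% higher in females and 0.0833% lower. At an unadjusted p under 0.05, 8 were higher in females and 1 lower, where 5.24% and 8.01% of all tested genes were. Birc5 (0.31, limma adjusted p = 0.253) and Cdc20 (0.29, adjusted p = 0.262) were among the 8, and Ccnd3 was the lower one (-0.13, adjusted p = 0.365). Of 37 differences 29 were positive (78.4%), against 46.5% of all tested genes. Mouse 20, labelled female, had sex-linked transcripts that did not match its label, and with it taken as male 0 genes were called, while 4 were higher and 0 lower at an unadjusted p under 0.05. Thymocyte markers had a positive difference for 17 of 17 tested, 8 of them at an unadjusted p under 0.05. The count of 8 division genes higher at that level became 3 without mouse 4, a female, 0 with the thymocyte score as a covariate and 1 with array weights.

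Much of the variation of these genes lay between mice of the same group. The median SD within groups was 0.22 for the 37 genes, from 0.14 to 0.50, and 0.17 for all tested genes. Many of the genes varied together from mouse to mouse. Over the 24 mice, the 5 genes whose pattern was most like that of Top2a were Cdca8 (r = 0.94), Ccnb1 (0.93), Birc5 (0.91), Nusap1 (0.90) and Aurka (0.90), and 12 of 36 had an r of at least 0.8. After removal of the group means the count was 13, and without mouse 4 it was 9. These correlations share the libraries and their RNA makeup, and are given as a description.

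Genes with lower correlations to Top2a over the 24 mice included Plk1 (r = 0.22), Pcna (0.28), Ccnd1 (0.42), E2f1 (-0.09), Ube2c (-0.20) and Cdk6 (-0.26), of which Ube2c was near background. Without mouse 4 the values were 0.48 for Plk1, 0.40 for Pcna, 0.45 for Ccnd1, 0.09 for E2f1, -0.07 for Ube2c and -0.05 for Cdk6. After removal of the group means they were 0.32 for Plk1, 0.19 for Pcna, 0.26 for Ccnd1, 0.02 for E2f1, -0.13 for Ube2c and -0.43 for Cdk6. The Mcm6 value was 0.35 over all mice, 0.23 without mouse 4 and 0.63 after removal of the group means. The mean deviation of the 37 genes was highest in AIRmin saline mouse 23 (0.31) and AIRmax urethane mice 5 (0.30) and 4 (0.26), and lowest in AIRmax saline mouse 9 (-0.33). Mouse 5 had no raised thymocyte score (-0.18), and its Ccnb1, Cdk1 and Prc1 stood at 9.75, 9.90 and 12.23, against 9.71, 9.74 and 11.78 in mouse 4. The group means of this deviation were 0.04 ± 0.22 in AIRmax urethane, -0.08 ± 0.17 in AIRmax saline, 0.08 ± 0.11 in AIRmin urethane and -0.03 ± 0.19 in AIRmin saline mice (SD, n = 6 each).

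**Figure D5:**
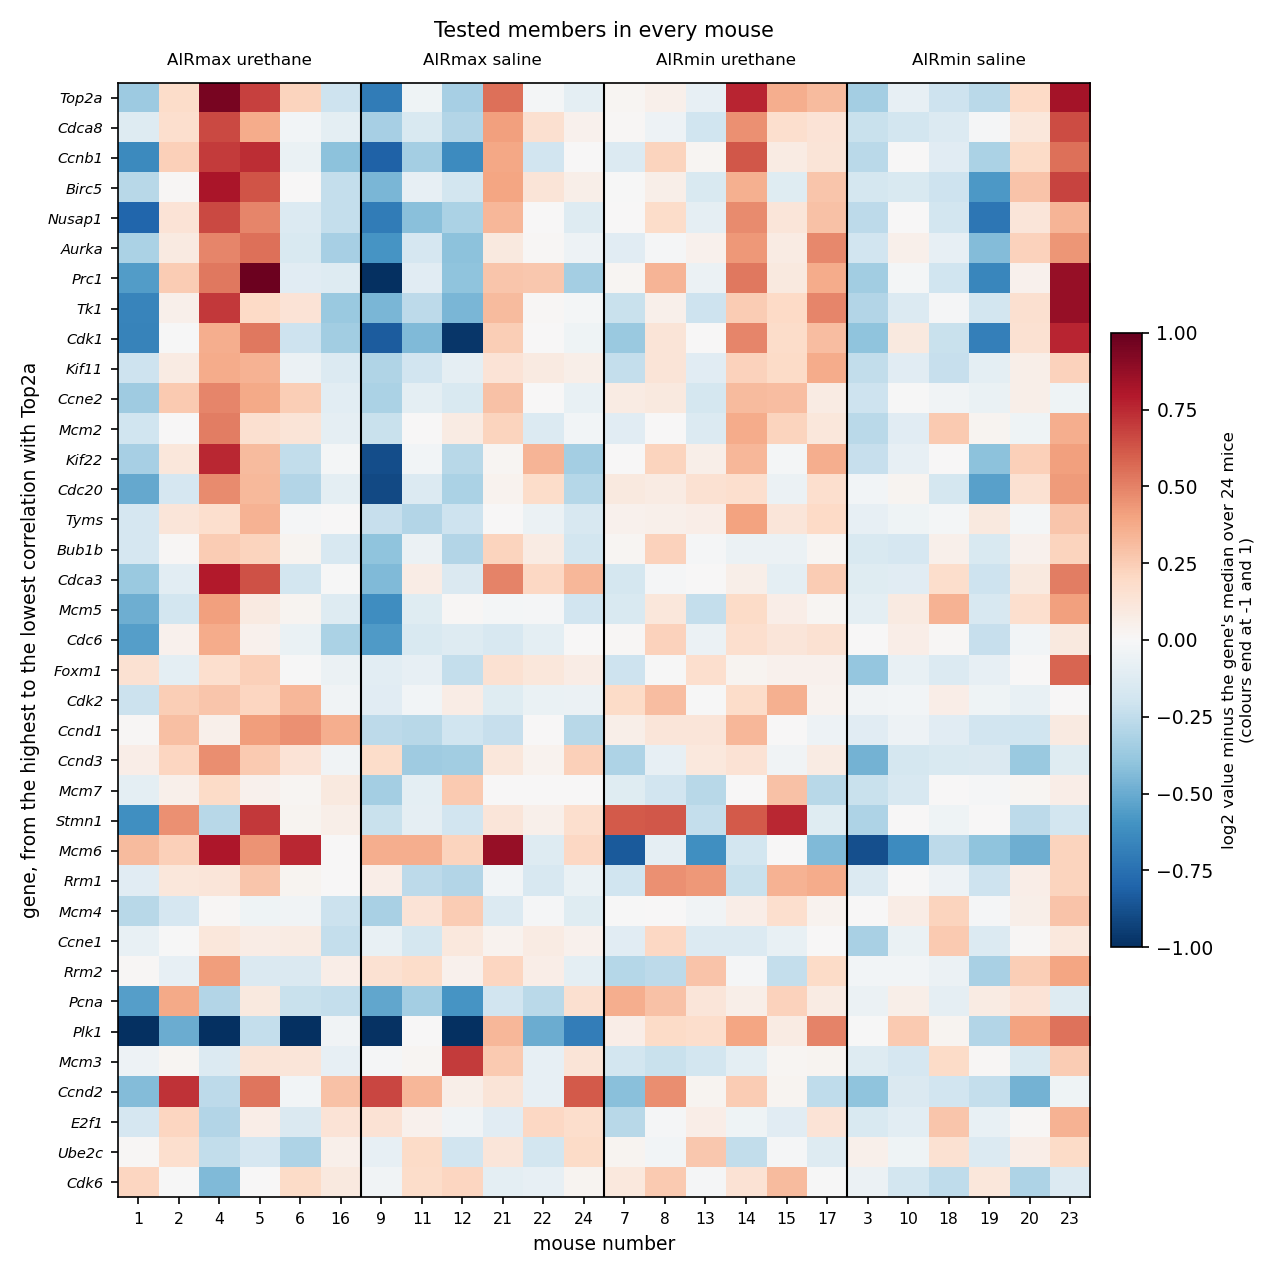
Distance in log2 units of each value from the gene's own median, for the 37 tested genes (rows, from the highest to the lowest correlation with Top2a) in every mouse (columns, grouped as AIRmax urethane, AIRmax saline, AIRmin urethane and AIRmin saline), in red above and blue below the median, with colours ending at -1 and 1. The upper rows share their high mice, 4, 5, 14, 21 and 23, which belong to all 4 groups, and the row of Plk1 is blue in most AIRmax mice.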

How the data were processed

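Per the labels, lung RNA of 24 mice was hybridised to Illumina mouse bead arrays, 1 array per mouse. Per the submitters' processing notes the arrays were read with BeadStudio (no version stated). The authors deposited normalized intensities on a linear scale (25697 probes, lowest 104.7, highest 70078), and their sorted values differed between arrays by at most 0.871%, as quantile normalization leaves them. Per the file headers, further tables hold signals with detection p-values, named by slide position, and their 72 value columns were tied to no mouse and were not used except for the symbols of the probes. No slide or scan date could be tied to a mouse, and the number of arrays limits the precision.

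Values were taken as log2 of the deposited intensities. The background limit was set from the lower side of the intensity distribution (mode 7.42, SD 0.217), and probes above it on at least 3 arrays were tested. Symbols were updated through RefSeq tables (20440 current, 4123 updated, 1134 kept as in the file). A linear model in limma 3.58.1 (R 4.3.3) had 1 mean for each of 8 combinations of line, treatment and sex, 3 mice each, with 1 spread over all arrays and Benjamini-Hochberg adjustment over 18324 probes, and every adjusted p comes from it unless a setting is named. A gene was taken by its brightest tested probe. Tables and permutation tests (100000 resamples, or exact within 6 mice) used Python 3.11.15 with numpy 2.4.6, pandas 2.3.3, scipy 1.17.1 and matplotlib 3.10.9. The fit was tested on simulated data. Labels name separate mice, so p-values cover the spread between mice.

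The genes, the lists of p53 targets, other cell cycle genes and tissue markers, and the tests were chosen with earlier results of these data known. Named are all genes called in a comparison, a fixed set of cyclins, kinases, replication and mitotic genes, up to 6 called genes of each other list, and the 5 genes most like Top2a. Relations of Cdkn1a with Mki67 were planned and could not be computed, as Mki67 had no probe. Alternatives changed the background correction, normalization, filter, samples, sex term, array weights, probe choice and tissue scores, and left out each mouse. The hepatocyte score, the sex label of 1 library and the fit without squamous-rich mice were chosen after seeing the data. That last fit was additive in line, treatment and sex, and kept mouse 18 alone of AIRmin saline.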

Additional observations from a re-analysis of the deposited data

Results flagged for a closer look

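In 7 of 152 groups of 6 mice examined, 1 mouse stood apart from the other 5 beyond the limit of Dixon's test, where chance gives about 1 group in 20. Ccnd1 stood at 14.80 in AIRmax saline mouse 22, against 14.52 to 14.60 in the others of its group. In AIRmax urethane mouse 4, which carried thymus transcripts, Cdk6 stood at 8.17, against 8.61 to 8.83, and Rrm2 at 9.38, against 8.82 to 9.03. In AIRmax saline mouse 9, which had the lowest mean of these genes, Cdc6 stood at 8.10, against 8.51 to 8.67, and Mcm5 at 10.54, against 10.97 to 11.17. Bub1b stood at 9.0 in AIRmin urethane mouse 8, against 8.71 to 8.79. Cdkn1a stood at 12.26 in AIRmax saline mouse 12, against 12.87 to 13.13.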

How the results depend on the processing

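No paired analysis was possible because the mouse numbers are unique and shared by no groups, and slide as a block was not run because arrays could not be tied to slides. Calls in the additive fit of 14 mice are left out of the counts below, because mouse 18 alone stood for AIRmin saline. Of the 37 genes, the count called for urethane minus saline over both lines was 1, and it was 2 with array weights. In AIRmax it was 1, and 0 with only the arrays compared or with the mean of a gene's probes. For AIRmax minus AIRmin over both treatments the count was 5, and it was 3 without a sex term or with the squamous or hepatocyte score. Among urethane mice it was 2, and 1 with only the arrays compared, array weights, or the thymocyte or hepatocyte score. Among saline mice it was 1, and 2 with only the arrays compared or the thymocyte or hepatocyte score, 0 with the squamous score and 3 with array weights. Leaving out each mouse gave 1 to 2 (2 without mouse 1 or 13) and, in AIRmax, 0 to 1 for urethane, and 2 to 6 (2 without mouse 15), 1 to 2 and 0 to 2 for the lines over both treatments, among urethane and among saline mice. It gave 0 in AIRmin, for the interaction and for sex. The correlation of Cdkn1a and Top2a in saline mice, 0.08, turned to -0.001 with the mean of probes and ran from -0.01 to 0.33 with a mouse left out, the lowest without mouse 19, and that in urethane mice, 0.13, ran from 0.033 to 0.363. Apart from the smaller number of samples in some fits, the cause was not tested.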
